A study of Mus musculus with 6 samples.

Results

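Calcium that leaves the sarcoplasmic reticulum of a muscle cell must be pumped back, stored and, where stores run low, replaced from outside. The 9 genes described here serve those steps. They are the calcium pump genes Atp2a1 and Atp2a2, the pump inhibitor gene Sln, the storage protein genes Casq1 and Casq2, the calcium sensor genes Stim1 and Stim2, the entry channel gene Orai1 and the calcium buffer gene Pvalb. They were taken by name from tables of 24411 gene symbols, and all 9 were found. The RNA came from C2C12, a single immortalised mouse myoblast line labelled as wild type and, in its cell type field, as myoblasts, whose cells fuse into myotubes when serum is lowered. Differentiated cultures were given 10 µM Sardomozide dihydrochloride, an inhibitor of the polyamine enzyme encoded by Amd1, or DMSO alone, and both groups were kept for 72 h. Each group had 3 libraries, and the comparison asks how the levels of these transcripts differ between Sardomozide and DMSO. Whether the 3 came from separate cultures is not stated in the labels, so the p-values rest on a spread between libraries that may be technical.

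During relaxation, the SERCA pumps use ATP to move calcium from the cytosol into the reticulum. Atp2a1 encodes SERCA1, the pump of fast fibres, and Atp2a2 encodes SERCA2, the pump of slow and cardiac muscle and of most other cells. Inside the reticulum, calsequestrin binds calcium with low affinity and high capacity. When the store empties, STIM proteins in the reticulum membrane open ORAI channels in the plasma membrane, a route called store-operated entry.

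Library totals ran from 25496323 to 36709804 counts. For Amd1 itself the DMSO libraries held 0, 3 and 0 counts and the Sardomozide libraries 0, 0 and 0, so that gene gives no check of the labels. How reads with several matches were counted was not given. Whether these counts reflect the expression of Amd1 or the way reads were counted was not tested. Of 8 muscle markers 7 were in the files, and their summed level was 15028 to 16158 CPM with DMSO and 15262 to 16640 CPM with Sardomozide; 2 of the 7 passed the test, Myog as a rise and Myh8 as a fall (log2 fold changes 0.24 and −0.63). CPM are counts brought to a common library size, here with TMM factors. The immune, endothelial, adipocyte and neural marker lists each summed to at most 2.33 CPM in any library, and none of their tested members passed. Among them Ptprc, Adgre1, Emcn, Adipoq, Plin1, Lep, Cidec, Rbfox3 and Snap25 were at 0 in every library. The 6 cardiac markers summed to 1608 to 1733 CPM with DMSO and 1546 to 1982 CPM with Sardomozide, nearly all of it Tnnt2, which embryonic skeletal muscle also expresses, while Myl7 was at 0. Of these 6, Myh6 passed the test, as a fall (log2 fold change −1.13). The 6 cycling myoblast markers were all detected and summed to 333 to 353 CPM with DMSO and 360 to 394 CPM with Sardomozide, and 1 of the 6, Mki67, passed the test, as a rise. The part of these marker changes in the results that follow was not tested. In such bulk samples, fewer cells of a type and less RNA per cell cannot be told apart.

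In myotubes given Sardomozide, Casq2 and Stim2 rose and Atp2a1 and Stim1 fell. The 4 changes were small, between 0.24 and 0.37 in size on the log2 scale. Atp2a2, Casq1, Orai1 and Pvalb did not pass edgeR's quasi-likelihood test, and Sln was too low to be tested. Thus 8 of the 9 genes passed the filter on low counts, and of these 2 rose, 2 fell and 4 did not pass (adjusted p under 0.05). Of the 13076 genes tested across the libraries, 16.3% were called in either direction, 7.88% as higher and 8.45% as lower. The 9 genes were chosen with earlier results of these data known, so their share called is no independent test. The values of the groups did not overlap for 4 of the 8 genes, and for 33.5% of all genes tested. The median log2 fold change was −0.06 over the 8 genes and −0.00082 over all genes tested, and the median absolute change was 0.25 and 0.12.

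**Figure D1:**
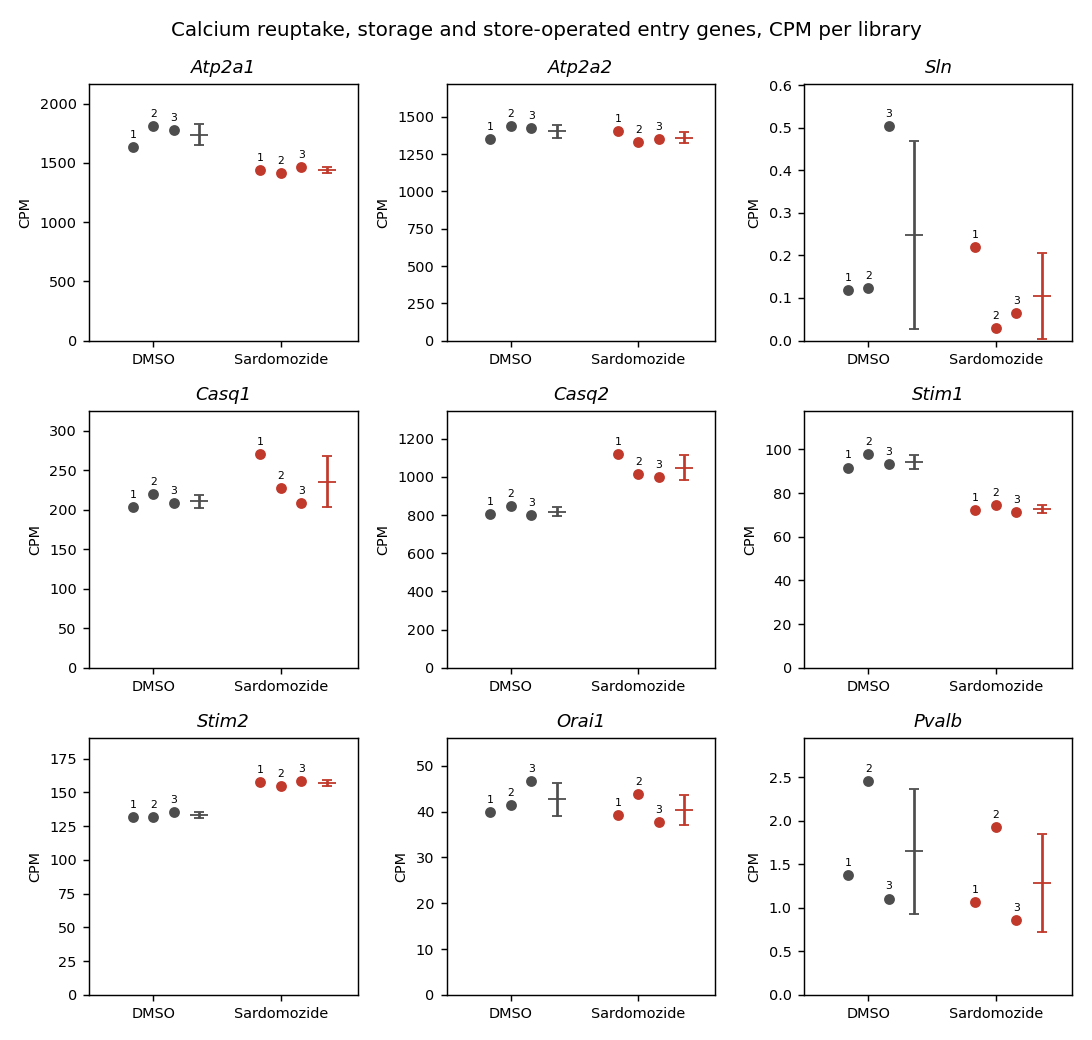
Level of each of the 9 genes in CPM (vertical axes, starting at 0) in 3 DMSO libraries (grey) and 3 Sardomozide libraries (red). Points are libraries with their replicate numbers, and bars are the mean ± SD. The groups do not overlap for Atp2a1, Casq2, Stim1 and Stim2, and they overlap for the other 5.

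The upstream sequences of the 4 genes that changed are shown because the sensor genes and the muscle genes among them differ in base composition, a property the choice of genes did not use. RefSeq promoter windows were at hand for 7 of the 9 genes (GRCm38.p6). The 200 bases from 250 to 51 before the transcript start are printed, 5′ to 3′ on the gene's strand, with each CG dinucleotide in capitals. They lie at chr7:126463124-126463323 on the minus strand (Atp2a1), chr3:102086165-102086364 on the plus strand (Casq2), chr7:102267569-102267768 on the plus strand (Stim1) and chr5:53998273-53998472 on the plus strand (Stim2).
Atp2a1: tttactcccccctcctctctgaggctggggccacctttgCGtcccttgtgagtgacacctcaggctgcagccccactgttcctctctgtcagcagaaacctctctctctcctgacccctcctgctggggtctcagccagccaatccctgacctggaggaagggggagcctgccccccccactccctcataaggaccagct
Casq2: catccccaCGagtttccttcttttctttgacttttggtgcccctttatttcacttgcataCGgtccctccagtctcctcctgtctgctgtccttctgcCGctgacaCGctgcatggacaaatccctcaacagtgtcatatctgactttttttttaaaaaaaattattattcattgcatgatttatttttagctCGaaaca
Stim1: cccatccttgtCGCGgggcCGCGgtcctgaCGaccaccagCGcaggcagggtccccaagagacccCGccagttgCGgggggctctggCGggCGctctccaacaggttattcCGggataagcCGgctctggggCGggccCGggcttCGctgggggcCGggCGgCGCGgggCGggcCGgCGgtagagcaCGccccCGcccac
Stim2: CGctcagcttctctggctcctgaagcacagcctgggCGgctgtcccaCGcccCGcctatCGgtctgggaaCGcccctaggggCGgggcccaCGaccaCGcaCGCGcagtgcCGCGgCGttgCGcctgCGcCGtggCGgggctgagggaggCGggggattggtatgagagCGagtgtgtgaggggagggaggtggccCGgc

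The windows of the sensor genes held 24 (Stim1) and 21 (Stim2) CG dinucleotides, those of the muscle genes 1 (Atp2a1) and 5 (Casq2). Over 32851 RefSeq promoter windows of the same length the median was 4, with quartiles of 2 and 11. The GC content was 76.5% for Stim1, 73.0% for Stim2, 62.5% for Atp2a1 and 41.0% for Casq2, against a median of 51.5%. The CG-rich windows of the sensor genes belonged to 1 gene that rose and 1 that fell. Whether base composition goes with the change in level was not tested. Those of the muscle genes were not of 1 kind. The GC content of Atp2a1 lay above the upper quartile of all windows (60.0%), and that of Casq2 below the lower quartile (44.5%). Some genes that did not pass the test had similar windows. That of Orai1 held 22 CG dinucleotides and 69.0% GC, near the sensor genes, and that of Casq1 1 and 60.0%, near Atp2a1. Of the Orai1 window, 29 bases lie in annotated exons. Pvalb, which did not pass either, had 1 window with 3 CG dinucleotides and 60.5% GC and 1 with 13 and 67.5%. The E-box CANNTG, the motif bound by myogenic factors, reads the same class of letters on both strands. It occurred once in the windows of Casq2 and Stim1, not in those of Atp2a1 and Stim2, and at least once in 59.0% of all windows. The letters GGAAA, the core bound by NFAT factors, occurred on either strand once in the Casq2 window, in none of the other 3, and in 48.5% of all windows. Neither the MEF2 consensus nor TATAAA was found on either strand in the 4 windows, and they occurred in 0.368% and 9.14% of all windows.

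Among the pump genes, Atp2a1 (chromosome 7, 126445858 to 126463108, GRCm38) had 1638, 1809 and 1775 CPM with DMSO and 1441, 1416 and 1469 CPM with Sardomozide. Every Sardomozide library lay below every DMSO library. The mean was 1740 ± 90.5 CPM with DMSO and 1442 ± 26.6 CPM with Sardomozide (SD, n = 3). It fell by 17.1%, a log2 fold change of −0.27 ± 0.046 (SE; edgeR adjusted p = 0.000394). Of the exonic bases of Atp2a1, 763 also lie in exons of Rabep2 on the other strand. Rabep2 had 23.8 ± 2.01 and 22.4 ± 1.96 CPM and did not pass (edgeR adjusted p = 0.566), so its level was far below that of Atp2a1 in both groups. Atp2a2 (chromosome 5, 122453513 to 122502225) had 1354, 1436 and 1423 CPM with DMSO and 1405, 1332 and 1350 CPM with Sardomozide. Its groups overlapped. The log2 fold change was −0.04 with a 95% interval of −0.14 to 0.05 (edgeR adjusted p = 0.551).

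Sln (chromosome 9, 53850164 to 53854560) encodes sarcolipin, a small membrane protein that binds SERCA and lowers its calcium transport. The DMSO libraries held 3, 4 and 15 counts of it and the Sardomozide libraries 8, 1 and 2. In 3 of the 6 libraries this was no more than the 3 counts that a count of 0 allows, and DMSO replicate 3 and Sardomozide replicate 1 were the highest of their groups. Sln did not pass the filter, and a difference between the groups was not detectable at this depth. Related to the pumps, Sln amounted to 0.256 ± 0.223 per 1000 of Atp2a1 and Atp2a2 together with DMSO and 0.123 ± 0.119 with Sardomozide (counts per kilobase of exon; SD, n = 3; exact permutation p = 0.5, two-sided), and the groups overlapped. The difference of −0.133 rested on DMSO replicate 3, and without that library it was −0.0041.

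Of the calsequestrin genes, Casq2, the cardiac and slow-muscle form (chromosome 3, 102086415 to 102146514), had 805, 845 and 801 CPM with DMSO. With Sardomozide it had 1122, 1017 and 1001 CPM, all above the highest DMSO library. The mean was 817 ± 24.5 CPM with DMSO and 1047 ± 65.5 CPM with Sardomozide (SD, n = 3). It rose by 28.1%, a log2 fold change of 0.36 ± 0.048 (SE; edgeR adjusted p = 3.85e-05). Casq1, the form of fast fibres (chromosome 1, 172209894 to 172219868), had 203, 219 and 209 CPM with DMSO and 271, 228 and 208 CPM with Sardomozide. Sardomozide replicate 1 was the highest and replicate 3 lay within the DMSO range, so the groups overlapped. The log2 fold change of Casq1 was 0.16 with a 95% interval of −0.06 to 0.39 (edgeR adjusted p = 0.306). Without Sardomozide replicate 3 it passed as a rise (0.25, adjusted p = 0.0212), and without Sardomozide replicate 1 its log2 fold change was 0.05 (adjusted p = 0.54).

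The sensor genes changed in opposite directions. Stim1 (chromosome 7, 102267806 to 102437319) encodes the sensor that drives most store-operated entry in muscle. It had 91.7, 98.1 and 93.1 CPM with DMSO and 72.3, 74.7 and 71.2 CPM with Sardomozide. The groups did not overlap, with means of 94.3 ± 3.34 and 72.8 ± 1.79 CPM (SD, n = 3). Stim1 fell by 22.8%, a log2 fold change of −0.37 ± 0.048 (SE; edgeR adjusted p = 2.26e-05). Stim2 (chromosome 5, 53998499 to 54121057) encodes the sensor that responds to smaller losses of stored calcium. Its values were 132, 132 and 136 CPM with DMSO and 158, 155 and 159 CPM with Sardomozide. All Sardomozide libraries lay above all DMSO libraries, with means of 157 ± 2.16 and 133 ± 2.35 CPM (SD, n = 3). Stim2 rose by 17.9%, a log2 fold change of 0.24 ± 0.042 (SE; edgeR adjusted p = 0.000497).

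Orai1 (chromosome 5, 123015074 to 123030456), the gene of the channel that STIM proteins open, had 39.8, 41.4 and 46.7 CPM with DMSO and 39.3, 43.9 and 37.8 CPM with Sardomozide. The groups overlapped, and the log2 fold change was −0.08 with a 95% interval of −0.23 to 0.07 (edgeR adjusted p = 0.479). Pvalb (chromosome 15, 78191114 to 78206400) encodes parvalbumin, a cytosolic buffer that speeds relaxation in fast fibres. It was low, with 35, 79 and 33 counts (1.38, 2.46 and 1.11 CPM) with DMSO and 39, 66 and 27 counts (1.07, 1.93 and 0.864 CPM) with Sardomozide. Replicate 2 was the highest in both groups. Its log2 fold change of −0.36 had a 95% interval of −1.10 to 0.38 (edgeR adjusted p = 0.539), which holds changes larger than those of the 4 genes that passed. Without DMSO replicate 2 the estimate was 0.06, and without Sardomozide replicate 2 it was −0.77; neither passed.

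**Figure D2:**
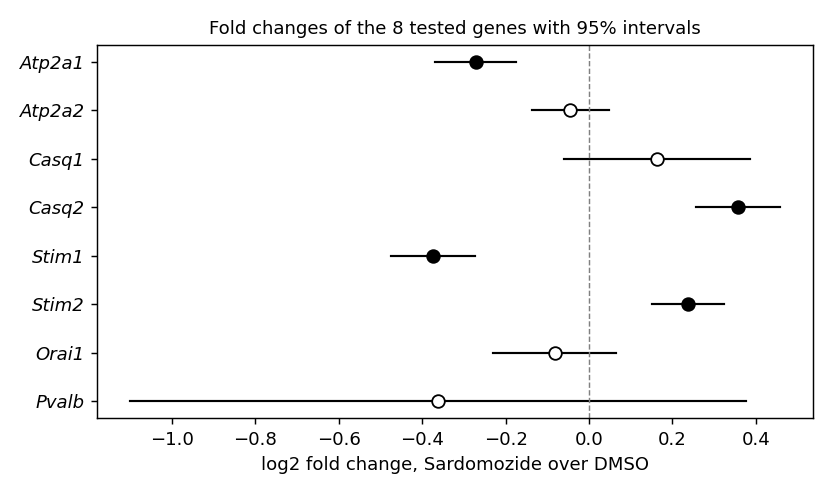
Log2 fold change of Sardomozide over DMSO (horizontal axis) for the 8 tested genes. Circles are edgeR estimates, filled where the adjusted p was under 0.05, and lines are 95% intervals, which exclude 0 for Atp2a1, Casq2, Stim1 and Stim2 and run from −1.10 to 0.38 for Pvalb.

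Levels of different genes were compared per kilobase of exon. In the DMSO libraries the order of CPM per kilobase was Atp2a1 (501 ± 26.0), Casq2 (299 ± 8.97), Atp2a2 (231 ± 7.23), Casq1 (108 ± 4.23), Stim2 (25.9 ± 0.457), Orai1 (18.6 ± 1.57), Stim1 (9.09 ± 0.322), Pvalb (1.58 ± 0.687) and Sln (0.189 ± 0.167; SD, n = 3). No neighbours in this order overlapped across the 3 libraries. The annotated exons of Stim1 cover 10371 bases together, while its longest coding transcript has 4362. Per kilobase of longest coding transcript, Casq2 overlapped with Atp2a2 (314 to 331 and 302 to 320 CPM per kilobase) and Orai1 with Stim1 (21.2 to 24.9 and 21.0 to 22.5), while the other neighbours stayed apart.

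The balance within each pair of related genes was taken inside each library, so that it does not depend on library scaling. Stim2 made up 74.4%, 73.1% and 74.7% of Stim1 and Stim2 together with DMSO and 81.5%, 80.7% and 81.8% with Sardomozide (counts per kilobase of exon). This was the largest shift of the 3 shares, 7.30 percentage points, from 74.0 ± 0.851% to 81.3 ± 0.585% (SD, n = 3). Per kilobase of longest coding transcript the Stim2 share was lower in both groups, at 55.5% and 65.6%. The Atp2a1 share of both pumps was 67.9%, 68.8% and 68.6% with DMSO and 64.2%, 65.0% and 65.6% with Sardomozide, from 68.4 ± 0.458% to 64.9 ± 0.681%. The Casq2 share of both calsequestrins was 73.9%, 73.3% and 73.2% with DMSO and 74.7%, 76.1% and 77.4% with Sardomozide, from 73.5 ± 0.346% to 76.1 ± 1.37%. In all 3 pairs the groups did not overlap. The two-sided exact permutation test gave p = 0.1 for each share, which is the smallest p that 3 against 3 libraries allow (0.133 after Benjamini-Hochberg adjustment over 4 ratios, that of Sln among them).

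**Figure D3:**
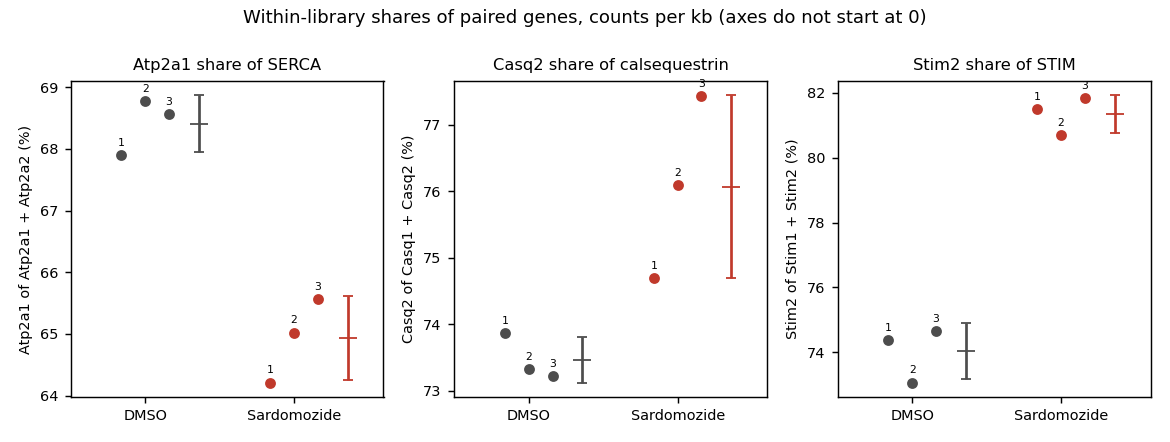
Share of 1 gene in a pair, in percent of counts per kilobase of exon (vertical axes, which do not start at 0), in each DMSO library (grey) and Sardomozide library (red). Points carry replicate numbers and bars are mean ± SD. The Atp2a1 share was lower and the Casq2 and Stim2 shares were higher in all 3 Sardomozide libraries than in any DMSO library.

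Other calcium handling genes came from 7 lists, chosen with earlier results of these data known, so their share called is no independent test. Of 72 such genes read from the files 59 were tested, and of these 3 rose, 12 fell and 44 did not pass, that is 25.4% called against 16.3% of all genes. Their median log2 fold change was −0.0072, and their median absolute change was 0.08 against 0.12 over all genes tested. Without DMSO replicate 1, 2 rose and 7 fell. That fit called 1326 genes in all, against 2135.

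Of 4 tested genes on the list of pumps and pump regulators 1 fell and 3 did not pass. Atp2a3, the SERCA3 gene of non-muscle cells, had 5.14 ± 0.602 CPM with DMSO and fell to 2.88 ± 1.05 CPM (SD, n = 3; −0.84 ± 0.22 on the log2 scale, SE; edgeR adjusted p = 0.0121), a call lost without DMSO replicate 1 (adjusted p = 0.0641). Pln, the gene of the cardiac pump inhibitor phospholamban, was not tested: it had 1 count in DMSO replicate 1, 2 counts in Sardomozide replicate 2 and 0 in the other 4 libraries. Of 11 storage and folding genes of the lumen 1 rose, 1 fell and 9 did not pass. Srl, which encodes sarcalumenin, a calcium-binding protein of the reticulum, had 871 ± 41.0 CPM with DMSO and rose to 1052 ± 48.9 CPM (0.27 ± 0.048 on the log2 scale, edgeR adjusted p = 0.000517). Calu, the calumenin gene, fell from 767 ± 10.2 to 686 ± 23.0 CPM (edgeR adjusted p = 0.0134), a call lost without DMSO replicate 1 (adjusted p = 0.07) and without Sardomozide replicate 3 (0.0556).

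Of 10 tested partners of store-operated entry 1 fell and 9 did not pass. Esyt1, which encodes a tether between the reticulum and the plasma membrane, had 208 ± 1.33 CPM with DMSO and fell to 174 ± 3.50 CPM (SD, n = 3; −0.26 ± 0.041 on the log2 scale, SE; edgeR adjusted p = 0.000177). Trpc4, Trpc6 and Homer2 had 0 counts in every library. Of 6 tested genes of calcium extrusion through the plasma membrane 3 fell and 0 rose. Slc8a3, a sodium-calcium exchanger gene, had 3.18 ± 0.434 CPM with DMSO and fell to 1.27 ± 0.158 CPM (−1.31 ± 0.24 on the log2 scale, edgeR adjusted p = 0.000771). The pump genes Atp2b1 and Atp2b4 fell (log2 fold changes −0.17 and −0.15, edgeR adjusted p = 0.0217 and 0.0302). Atp2b1 lost its call when DMSO replicate 1 (adjusted p = 0.0972), DMSO replicate 3 (0.0848), Sardomozide replicate 2 (0.0586) or Sardomozide replicate 3 (0.116) was left out. Atp2b4 kept its call without DMSO replicate 2 or Sardomozide replicate 2 and lost it without each of the other 4 libraries (adjusted p from 0.0641 to 0.141).

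Of 5 tested genes of cytosolic calcium binding 1 fell and 4 did not pass. Sri, the sorcin gene, fell by 0.29 on the log2 scale (edgeR adjusted p = 0.022). The call was lost without DMSO replicate 1 (adjusted p = 0.0565), DMSO replicate 2 (0.0884) or Sardomozide replicate 1 (0.104). Of 9 mitochondrial genes 1 rose and 1 fell. Slc8b1, the mitochondrial sodium-calcium exchanger gene, rose by 20.8% (log2 fold change 0.27 ± 0.054, edgeR adjusted p = 0.00143). Micu2, which encodes a gatekeeper of the calcium uniporter, fell by 12.6% (−0.19 ± 0.047, edgeR adjusted p = 0.00717). Of 14 tested genes of calcium release and coupling 1 rose, 4 fell and 9 did not pass. Cacna1s, the voltage sensor gene, fell by 22.5% (−0.37 ± 0.047, edgeR adjusted p = 1.92e-05), and Itpr3, Trdn and Cacng1 fell (log2 fold changes −0.28, −0.24 and −0.15, edgeR adjusted p = 0.00126, 0.00802 and 0.015). The call of Cacng1 was lost without DMSO replicate 2 (adjusted p = 0.085). Cacnb1, singled out after its values were seen as the gene that rose, increased by 12.7% (edgeR adjusted p = 0.0294). It kept its call without either replicate 2 and lost it when any of the other 4 libraries was left out (adjusted p from 0.0576 to 0.158).

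**Figure D4:**
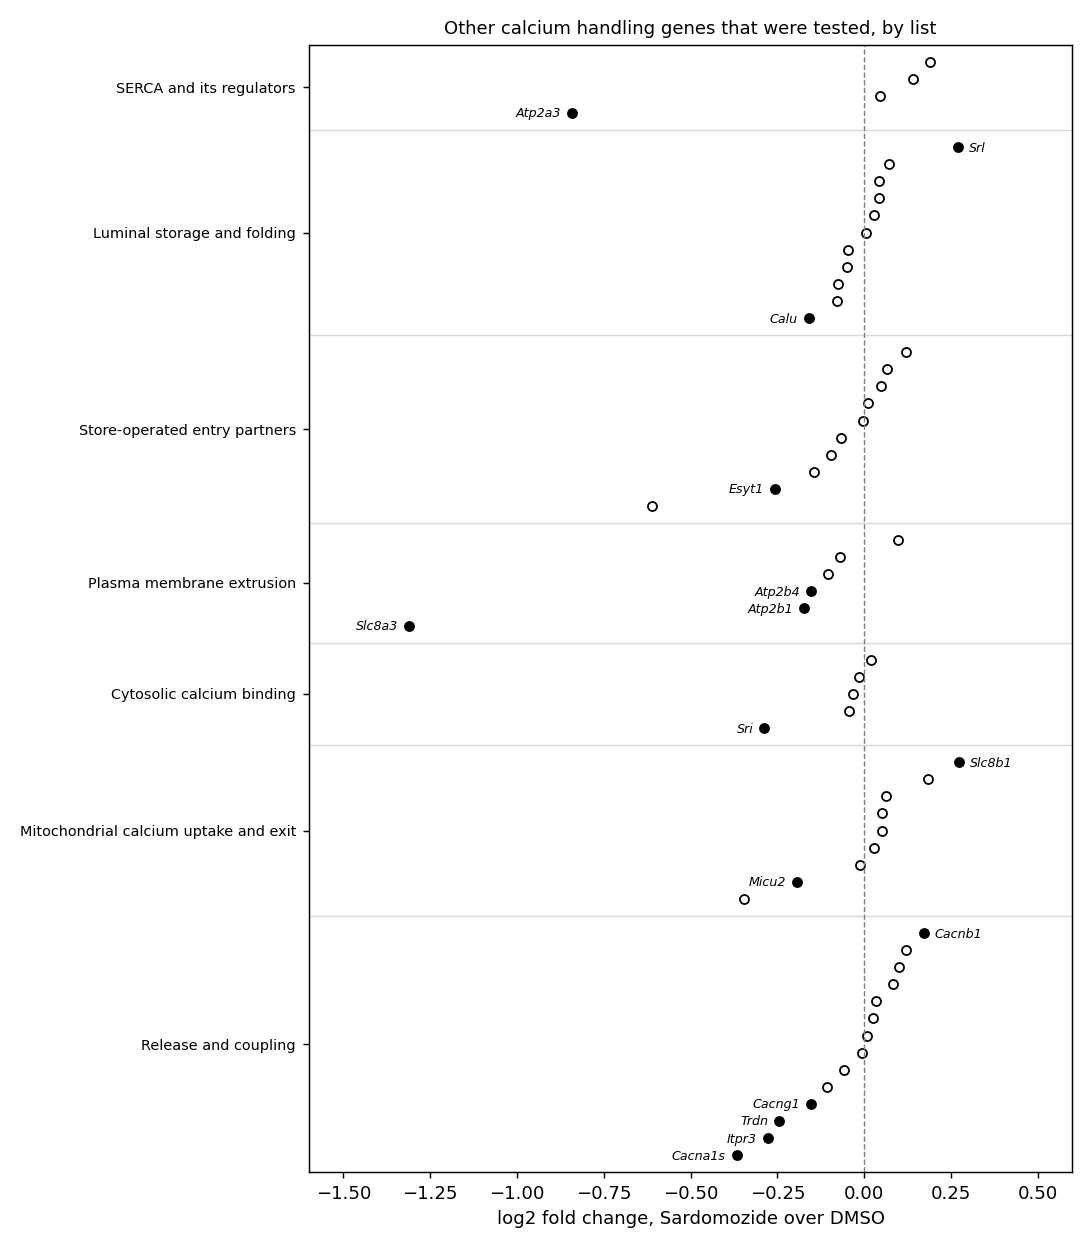
Log2 fold change of Sardomozide over DMSO (horizontal axis) for the 59 tested calcium handling genes of 7 lists (rows), 1 circle per gene. Filled, named circles had an edgeR adjusted p under 0.05: 3 lie above 0 (Srl, Slc8b1 and Cacnb1) and 12 below, with Slc8a3 lowest at −1.31.

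Genes with the most similar pattern over the 6 libraries were sought for the 2 genes with the smallest adjusted p, Stim1 and Casq2. Likeness was the root mean square difference of log2 CPM, each gene centred on its own mean. Nearest to Stim1 were Sh3bgrl3, Apobec2 and Fth1 (0.028, 0.028 and 0.030 on the log2 scale), with log2 fold changes of −0.36, −0.35 and −0.36. Nearest to Casq2 were Ankrd1, Dapk2 and Zfr (0.017, 0.027 and 0.028), with log2 fold changes of 0.37, 0.37 and 0.33.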

How the data were processed

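The authors deposited raw read counts per gene symbol, 1 table per library. STAR, StringTie and DESeq2, and GRCm38 with mm10 as builds, stand in the submitters' processing notes. Their versions and roles, the annotation, the use of strand and the handling of reads with several matches were not given in the sources used here. Reads of overlapping antisense genes may therefore be mixed.

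Counts of 6 libraries (3 DMSO, 3 Sardomozide, groups from the labels) were filtered with filterByExpr (minimum count 10, total 15), scaled by TMM and tested with edgeR 4.0.16 in R 4.3.3 (glmQLFit, robust, treatment as the single term, two-sided). Benjamini-Hochberg adjustment ran over 13076 genes, and genes under 0.05 were called. Standard errors were computed as the fold change divided by the root of F. Single values were compared by exact permutation. Limits for a count of 0 (3 counts, 0.0823 to 0.118 CPM) cover counting error only. Replicates of a group differed by more than sampling noise, so all were kept. Chi-square per degree of freedom was 5.45 to 6.88 between DMSO libraries and 9.06 to 16.1 between Sardomozide libraries. Positions and exon lengths are from GENCODE M21 (GRCm38). Steps were tested on simulated data.

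Members and lists were chosen with earlier results of these data known. All 9 members were named, with up to 4 called genes per list (smallest adjusted p; 1 gene where none was called), Atp2a3 and Pln. A gene of these lists is not reported here and was left out of their counts. Marker genes, overlapping genes and Cacnb1 were named beside them, as were the 3 genes nearest in pattern to each of 2 members. Alternatives were RLE, upper-quartile and no factors, DESeq2 1.42.0, limma-voom (limma 3.58.1), no filter, CPM of at least 1 in every library, a replicate block, no robust estimation and leaving out each library. Transcript lengths as an alternative to exon lengths were added after seeing the data.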

Additional observations from a re-analysis of the deposited data

How the results depend on the processing

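Atp2a1, Casq2, Stim1 and Stim2 kept their direction and their call in all 15 alternatives each, with log2 fold changes from −0.31 to −0.24, 0.30 to 0.39, −0.39 to −0.35 and 0.23 to 0.25. Their highest adjusted p values were 0.00648, 0.000778, 0.000369 and 0.00482, each without a DMSO library. The number of the 9 genes called was 4 in every setting other than leaving out Sardomozide replicate 3, where it was 5, with Casq1 added; over the libraries left out it ran from 4 to 5. Without a filter Sln was tested and did not pass (adjusted p = 0.461). The number of other calcium handling genes called ran from 9 to 15 over the libraries left out, lowest without DMSO replicate 1 (9, and 1326 genes in all). Fits without a library have fewer samples. The scaling alternatives moved the median of all genes by less than 0.1 on the log2 scale. With the replicate number as a block (replicate block), 4 members and 13 other calcium handling genes were called, Atp2b4 and Cacnb1 lost their calls (adjusted p = 0.0612 and 0.0654), and 1820 instead of 2135 genes were called in all. Libraries with the same number did not deviate together across all genes (correlations of 0.022, −0.023 and −0.018 for numbers 1, 2 and 3). Such correlations cannot settle whether the numbers mark a pairing, which the labels do not state. Differences between group shares ran from −3.89 to −3.12 percentage points for Atp2a1, 1.92 to 3.30 for Casq2 and 6.81 to 10.1 for Stim2. These ranges cover the replicate block, no division by length, transcript lengths and each library left out. None of these settings could reverse a difference, because the groups did not overlap in any of the 3 shares. The replicate block leaves the difference itself unchanged. These designs cannot reach p under 0.05, so the ranges say nothing of significance. Counts of Sln (1 to 15 in a library) and Pvalb (27 to 79) were few and differed between libraries of a group, and the estimate of Pvalb changed sign without DMSO replicate 2 (0.06).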
